A study of Rattus norvegicus with 45 samples.

Results

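Exercised female Sprague-Dawley (SD) rats that received 1.0 mg/kg/day of cerivastatin, a statin, were compared with exercised rats that received 0.5 mg/kg/day, in the gastrocnemius. The comparison was made on 7 of the series' 45 Affymetrix arrays, 4 at 1.0 mg/kg/day (the higher dose) and 3 at 0.5 mg/kg/day (the lower dose), chosen by the dose, muscle and exercise given in the sample titles. All 7 rats were dosed for 14 days and ran on a treadmill for 20 min/day at 20 m/min on 5 days each week. The labels describe the arrays of a group as biological replicates and give no age, no litter and no batch. The exercised vehicle group (4 arrays) and the unexercised rats at the same doses (4 arrays at 0.5 and 3 at 1.0 mg/kg/day) served as reference comparisons. They were drawn from the 30 gastrocnemius arrays of the series, and the remaining 15 arrays were of soleus. The question the design sets is what the last doubling of the dose does to a muscle that is also being exercised.

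Statins block HMG-CoA reductase, the enzyme that makes mevalonate, from which cells build cholesterol and the isoprenoid tails that anchor many proteins to membranes. When sterols run low, SREBP transcription factors are released from the endoplasmic reticulum and turn on the genes of sterol synthesis. Muscle damage is the best known adverse effect of the class. The rat gastrocnemius is mostly fast-twitch, with a deeper slow portion, and damaged fibres are normally cleared by macrophages before satellite cells, the muscle's stem cells, rebuild them.

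Values are the deposited array signals, in replicate order, with the 3 arrays of the lower dose before the 4 of the higher dose. Differences are log2 fold changes, higher minus lower dose, with the standard error from limma, and p-values are Benjamini-Hochberg adjusted over 21729 probe sets. Where several tested probe sets read a gene, the brightest of them on average over the series was used, which gave 11684 genes. The words rose and fell are kept for genes with an adjusted p under 0.05. Genes were named by a rule of size and p given with the processing, and further well-known members of each list were added after their values were seen. In whole muscle, fewer cells of a type and less RNA per cell cannot be told apart. Each p-value sets a difference against the spread within groups, estimated over all 30 gastrocnemius arrays and not over these 7 alone. The number of arrays limits the precision of that estimate.

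The 4 arrays of the higher dose did not form a single cluster. Over all tested probe sets, replicates 1 and 3 correlated at 0.945 with each other and replicates 2 and 4 at 0.970, while the correlations across these pairs were 0.899 to 0.914. Against the arrays of the lower dose, replicates 1 and 3 correlated at 0.828 to 0.861 and replicates 2 and 4 at 0.689 to 0.722. The 3 arrays of the lower dose correlated with each other at 0.939 to 0.945. The mean log2 level of 14 slow-fibre sarcomere genes moved with this split. It was 13.0, 13.4 and 14.0 at the lower dose, and 13.6, 8.55, 13.3 and 10.1 at the higher dose. It was also uneven in exercised rats on vehicle, at 11.7, 14.2, 10.9 and 8.39, so low values occurred without the drug. The labels do not say which part of the muscle was taken. All 7 arrays were rich in muscle transcripts, with muscle creatine kinase, Ckm, at 75493, 81676 and 75920.0 and then 51562, 31061, 55397 and 31874. Further fits, chosen after the data were seen, are therefore given beside the lists. The first leaves out replicates 2 and 4. The other takes the slow-fibre level as a covariate, and its counts are given for some of the lists.

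Of 21729 probe sets, 8630 (39.7%) differed between the doses, 4682 higher and 3948 lower at 1.0 mg/kg/day. Among the 11684 genes, 3083 rose (26.4%) and 2325 fell (19.9%). The signals of the 2 groups did not overlap in 3540 genes (30.3%) with all arrays higher and in 2834 genes (24.3%) with all arrays lower at the higher dose. A change of more than 8-fold was reached by 330 of the genes that rose and 81 of those that fell. The median difference of all genes was 0.10. Centring each array on its median moved this median to -0.06, and quantile normalization to -0.03, and the share of higher probe sets among the calls went from 54.3% to 45.2% and 46.5%. Without replicates 2 and 4, 1954 of the 21729 probe sets were higher and 1151 lower, 3105 in all. These totals are the ones to set beside each list's counts in that fit. With the slow-fibre level as a covariate, 4401 were higher and 3759 lower. Of 365 named or paired genes, 240 stayed on the same side of the threshold without replicates 2 and 4, 124 lost their call and 1 gained one. Among genes called in either fit, 0 changed direction. The direction of genes called in neither fit was not compared.

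**Figure D1:**
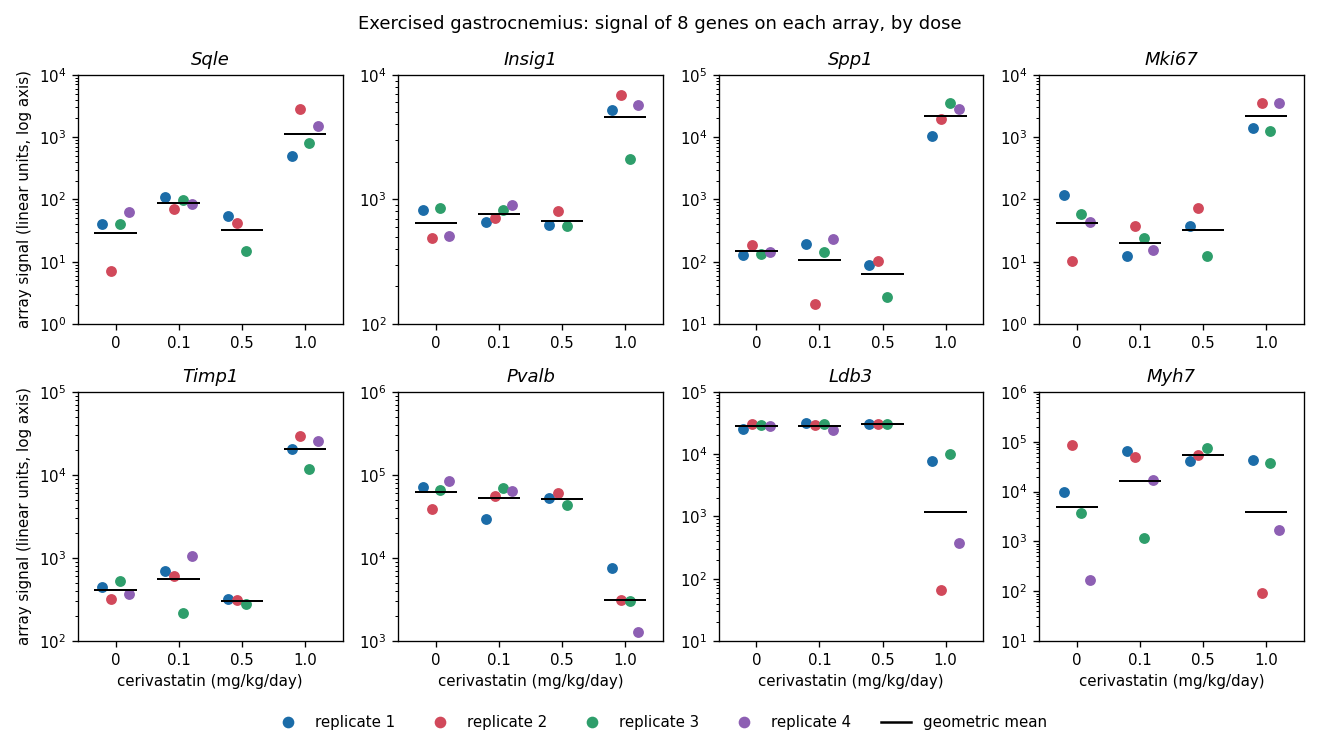
Signal of 8 genes (vertical log axis, arbitrary units after scaling) in each exercised gastrocnemius array against the dose of cerivastatin in mg/kg/day, with a point for each array coloured by replicate, and a line for each group's geometric mean. Sqle, Insig1, Spp1, Mki67 and Timp1 lie higher in all 4 arrays at 1.0 than in any of the 3 at 0.5 mg/kg/day, Pvalb and Ldb3 lie lower, and Myh7 covers the range of its 4 arrays at 1.0 mg/kg/day from 91.9 to 42294.

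Genes of sterol synthesis rose. Of 17 enzymes tested (20 listed), 12 rose and 0 fell, with a median difference of 1.17 and a range from -0.48 to 4.64. Squalene epoxidase, Sqle, which oxidises squalene on the way to sterols, had signals of 54.5, 41.5 and 15.1 at the lower dose and 490.0, 2870.0, 790.3 and 1523 at the higher dose. All 4 arrays of the higher dose lay above all 3 of the lower dose, with replicate 2 highest and replicate 1 lowest. The difference was 4.64 ± 0.67 (adjusted p = 3.4e-05). Isopentenyl-diphosphate isomerase, Idi1, which makes the allylic building block of every isoprenoid, went from 274, 322 and 262 to 1139.8, 4229, 1194 and 2314, a difference of 2.69 ± 0.42 (adjusted p = 6.1e-05). The methylsterol monooxygenase Msmo1 read 441, 338 and 531 and then 1445, 4145, 1731 and 3536 (2.48 ± 0.37; adjusted p = 4.3e-05). For both genes the groups did not overlap, and replicates 2 and 4 held the higher values. The acetyl-CoA acetyltransferase Acat2 (2.52 ± 0.41), lanosterol demethylase Cyp51 (2.09 ± 0.36), the sterol isomerase Ebp (1.86 ± 0.36) and lanosterol synthase Lss (1.71 ± 0.36) also rose. Farnesyl-diphosphate synthase, Fdps, which supplies the farnesyl tail, rose by a smaller amount, 0.84 ± 0.26 (adjusted p = 0.013). Squalene synthase, Fdft1, the first enzyme committed to sterols, was the only tested member with a negative difference, -0.48 ± 0.25, and did not pass the test (adjusted p = 0.13). Its signals were 1219.8, 1278 and 1308 and then 1246, 852, 1014 and 616, which overlap.

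The rise was uneven among the arrays of the higher dose. The median member stood above its mean at the lower dose by 0.44, 2.20, 1.02 and 1.70 in replicates 1 to 4. With replicates 2 and 4 left out, 7 members rose and the median was 0.44, and leaving out any 1 array gave 8 to 12 members. With the slow-fibre level as a covariate the count was 11. Fdps lost its call without replicate 2 alone or with replicate 4.

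The sensors of the pathway moved in different directions. Insig1, the endoplasmic reticulum anchor that is itself an SREBP target, had signals of 623, 805 and 609.5 at the lower dose and 5217, 6938, 2112 and 5717 at the higher dose. The groups were apart, and the array nearest the lower dose was replicate 3. The difference was 2.74 ± 0.49 (adjusted p = 0.00017). Its relative Insig2 fell, from 1258, 1262 and 1149 to 622, 516, 605 and 502 (-1.11 ± 0.21; adjusted p = 0.00023). Srebf2, which encodes the SREBP that drives sterol genes, rose by 0.90 ± 0.24 (adjusted p = 0.0047), whereas Srebf1, whose products drive fatty acid genes, fell. Srebf1 had signals of 3436, 2910.2 and 1847 and then 699, 614, 812 and 369, with no overlap (-2.12 ± 0.44; adjusted p = 0.00055). The sterol carrier Stard4 (2.46 ± 0.50), the lysosomal cholesterol transporter Npc2 (1.78 ± 0.32) and the lipoprotein receptor Scarb1 (2.59 ± 0.82) rose. In all, 6 of 13 genes of sterol sensing, uptake and efflux rose and 2 fell, against 26.4% and 19.9% of all genes. On replicates 1 and 3 alone, where 1954 of 21729 probe sets were higher and 1151 lower, these counts were 3 and 2. Srebf2 and Scarb1 lost their calls there.

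Among 18 genes of fatty acid and triglyceride synthesis, 3 rose and 5 fell, against 26.4% and 19.9% of all genes. ATP-citrate lyase, Acly, which supplies acetyl-CoA to both lipid pathways, rose by 2.28 ± 0.43, as did the desaturase Fads1 (2.39 ± 0.50) and the elongase Elovl5 (1.82 ± 0.45). Malic enzyme Me1 (-2.33 ± 0.50) and the phosphatidate phosphatase Lpin1 (-2.54 ± 0.48) fell. Fatty acid synthase, Fasn, had signals of 322, 398 and 288 and then 884, 1472, 504 and 1153, which did not overlap, but its difference of 1.45 ± 0.77 did not pass the test (adjusted p = 0.14). The number that fell was 3 to 5 when any 1 array was left out (lowest without replicate 4 of the higher dose or replicate 3 of the lower dose) and 1 without replicates 2 and 4, with 2 that rose, where Elovl5 and Me1 lost their calls.

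Sequence upstream of sterol synthesis genes is shown because these genes moved together. For 14 of the 17 tested enzymes RefSeq gives a promoter window of 250 bases before to 50 after the gene start, in build GRCr8. The box CCAAT, read on either strand, was in 11 of these 14 windows (78.6%), against 37.7% of all 27457 promoters of the table and 37.6% of the tested genes with a window. The sterol element TCACNCCAC, on either strand, was in 0 of the 14, against 1.13% of all promoters. That count says only that these letters were not in these windows. Capitals mark CCAAT or its reverse complement ATTGG, and each stretch runs 5′ to 3′ along the gene's strand. The Idi1 stretch (chr17:66547535-66547610, minus strand) holds 2 boxes between 86 and 11 bases before the start, the Ebp stretch (chrX:16971327-16971401, plus strand) holds 2, and the Lss stretch (chr20:12118288-12118332, minus strand) holds 1.
Idi1: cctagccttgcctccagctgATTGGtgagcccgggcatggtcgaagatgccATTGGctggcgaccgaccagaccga
Ebp: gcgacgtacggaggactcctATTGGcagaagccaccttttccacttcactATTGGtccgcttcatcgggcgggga
Lss: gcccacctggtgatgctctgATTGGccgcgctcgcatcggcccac

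Of 16 tested genes that use isoprenoids, 2 rose and 5 fell, against 26.4% and 19.9% of all genes. The CAAX protease Rce1, which trims prenylated proteins, rose by 1.88 ± 0.31 (adjusted p = 9.9e-05), as did the prelamin protease Zmpste24 (0.78 ± 0.19). All 4 tested genes of ubiquinone synthesis fell, with Coq2 at -1.92 ± 0.42, Coq3 at -1.66 ± 0.45, Coq7 at -1.46 ± 0.39 and the side-chain synthase subunit Pdss2 at -1.56 ± 0.30. The dolichol-phosphate mannose synthase Dpm1 fell too (-0.51 ± 0.17). The shared subunit of the farnesyl and geranylgeranyl transferases, Fnta, did not pass the test, with signals of 2872, 2635 and 2132 and then 3033, 2919, 2313 and 2579.9. When replicates 2 and 4 were left out, 1 rose and 2 fell, and Zmpste24, Coq3, Coq7 and Dpm1 lost their calls. Dpm1 also lost its call without replicate 4 of the higher dose or replicate 1 of the lower dose.

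Genes of macrophages and other myeloid cells had the highest median of the gene lists described here. Of 36 tested (43 listed), 35 rose and 0 fell, with a median of 4.29. Their mean log2 level was 7.49 to 7.77 over the 3 arrays of the lower dose and 11.20 to 12.55 over the 4 of the higher dose, and it was 7.80 to 7.97 on vehicle. Osteopontin, Spp1, a secreted matrix protein of activated macrophages, had signals of 89.0, 102 and 27.3 at the lower dose and 10524, 19592, 35518 and 28753 at the higher dose. Every array of the higher dose was far above every array of the lower dose, with replicate 3 highest. The difference was 8.12 ± 0.91 (adjusted p = 8.0e-06), the largest among the genes with a symbol. The macrophage glycoprotein Gpnmb went from 329, 388 and 193 to 26376, 27502, 43413 and 34386 (6.73 ± 0.83; adjusted p = 1.2e-05). The lysosomal marker Cd68 went from 178, 133 and 142 to 2560.4, 7461, 8995 and 10720.0 (5.34 ± 0.74), and here replicate 1 was the lowest of the 4. The C-type lectin Clec4a3 (6.05 ± 0.65), the Fc receptor Fcgr2b (5.99 ± 0.72) and the pattern receptor Tlr2 (5.54 ± 0.79) followed. The scavenger receptor Cd163, a marker of resident and repair macrophages, read 241, 148 and 249 and then 6740.1, 17408, 2311 and 11263, so that replicate 3 was lowest. The metalloelastase Mmp12 read 61.8, 106 and 150.2 and then 496, 1643, 25542 and 2841, so that replicate 3 stood highest. The oxidase subunit Ncf1 did not pass the test (1.10 ± 0.72; adjusted p = 0.24).

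The myeloid counts were nearly the same without the arrays low in slow-fibre genes. Without replicates 2 and 4, 34 of 36 rose with a median of 3.86, and with the slow-fibre covariate 35 rose. The median member stood above the lower dose by 3.53, 4.35, 4.28 and 4.83 in replicates 1 to 4.

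Of 28 chemokine and receptor genes on the array, 22 passed the filter on mean signal over all 45 arrays, and 13 of these rose. That filter takes in the higher-dose arrays, so a gene low elsewhere can pass through them. Ccl7, which draws monocytes, had signals of 50.1, 32.9 and 14.0 and then 9564, 11818, 5015 and 9752 (7.68 ± 0.94; adjusted p = 1.2e-05). Ccl2, a ligand of the same kind, had signals of 264, 94.5 and 71.9 and then 12887, 15787, 11770.0 and 18252 (6.74 ± 1.01; adjusted p = 4.4e-05). Neither gene's groups overlapped. The chemokine receptor Ccr1 rose by 5.63 ± 0.85, and Ccl3 (3.68 ± 0.78), Ccl4 (2.71 ± 0.52) and Cxcl16 (2.48 ± 0.53) rose by less. Among the members that did not pass were Cxcl12 (-0.60 ± 0.37; adjusted p = 0.21), Cxcr4 (0.53 ± 0.37; adjusted p = 0.27) and Ccl19 (0.49 ± 0.52; adjusted p = 0.48). Averaged over all its probe sets, Cxcl12 was instead higher and passed. Leaving out replicates 2 and 4 left 11 that rose.

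Of 15 neutrophil genes listed, 9 were on the array and 4 passed the same filter, and those 4 spread widely. Genes that are high at the higher dose pass it more readily, so the share that rose is not a share of all neutrophil genes. All 4 tested rose, led by the calprotectin subunit S100a9, at 40.5, 19.1 and 246 and then 1924, 7203, 535 and 1763 (4.67 ± 0.96; adjusted p = 0.00055). The groups did not overlap, replicate 2 was highest and replicate 3 lowest. With replicates 2 and 4 left out, only 1 of the 4 passed. Of 8 lymphocyte genes tested, 2 rose (25%, near the 26.4% of all genes). They were Cd4 (2.99 ± 0.50), which rat macrophages also express, and the T-cell kinase Lck (1.24 ± 0.27). The T-cell receptor chains Cd3g (1.25 ± 0.55; adjusted p = 0.074) and Cd247 (0.09 ± 0.37; adjusted p = 0.87) did not pass, and the list's median was 0.56.

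Complement and antigen presentation genes rose. Of 14 complement genes 11 rose and 0 fell. The C1q chain C1qa, made by macrophages, read 458, 550.5 and 660.5 and then 6614, 10040.0, 11509 and 17528 (4.26 ± 0.58; adjusted p = 2.1e-05). C3, the central component, read 29.6, 116 and 105 and then 887, 922, 789 and 1284 (3.49 ± 0.74; adjusted p = 0.00067). The groups did not overlap for either. Of 17 genes of antigen presentation and the immunoproteasome 12 rose, with the peptide pump Tap1 at 3.58 ± 0.61 and the immunoproteasome subunit Psmb9 at 2.78 ± 0.41. The class II transactivator Ciita did not pass (-0.20 ± 0.46; adjusted p = 0.76). On replicates 1 and 3 alone, the counts were 9 and 9.

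**Figure D2:**
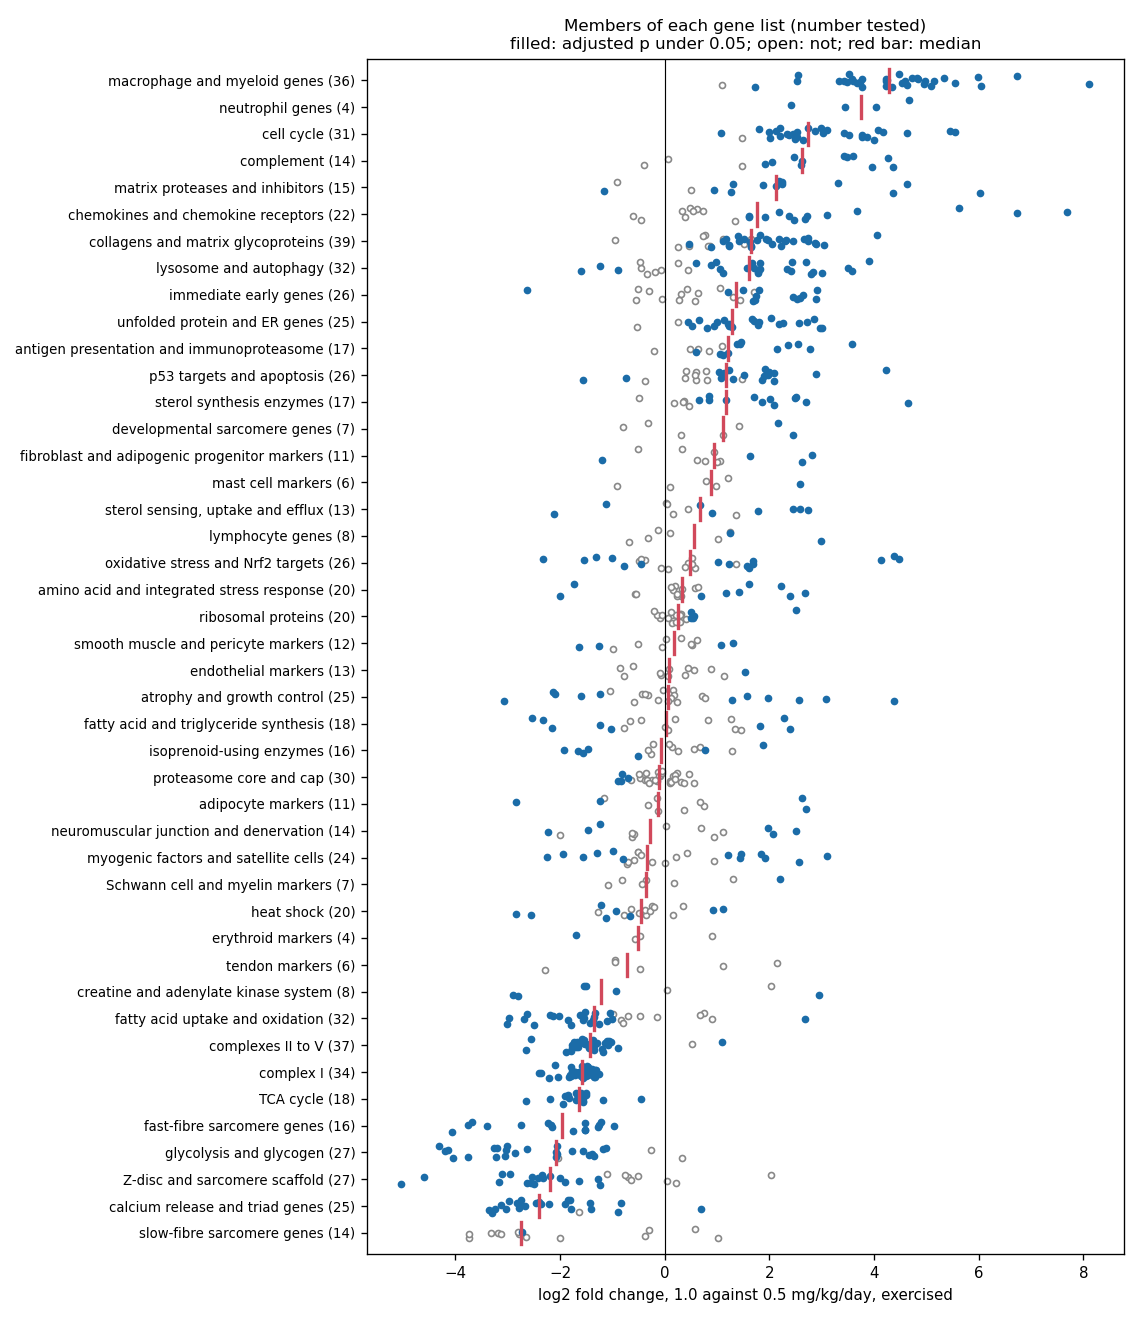
Log2 fold change (1.0 minus 0.5 mg/kg/day, exercised gastrocnemius) of each tested member of the gene lists, with a row for each list, filled points for genes with an adjusted p under 0.05, open points for the others and a red bar at the list's median. The macrophage list has its median at 4.29, the cell cycle list at 2.75, the calcium release list at -2.40 and the glycolysis list at -2.08.

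Of 37 cell cycle genes on the array, 31 passed the signal filter, and 30 of these rose, with 0 falling and a median of 2.75. The filter takes in the higher-dose arrays, so genes low elsewhere can pass through them. The proliferation antigen Mki67 had signals of 38.1, 72.3 and 12.3 at the lower dose and 1416, 3586, 1257 and 3569.6 at the higher dose. Arrays 2 and 4 of the higher dose were above 1 and 3, and all 4 were above the lower dose (5.54 ± 0.88; adjusted p = 6.7e-05). The replication helicase subunit Mcm6 went from 76.8, 36.1 and 66.9 to 1344, 2599.9, 1102 and 2266 (4.63 ± 0.64). The mitotic kinase Cdk1 went from 94.5, 112 and 98.7 to 863, 2598, 987 and 2599 (3.78 ± 0.83; adjusted p = 0.00087). The same order of the arrays was seen, with no overlap. The kinase partner Cks2 (5.45 ± 1.03), the exchange factor Ect2 (4.16 ± 0.70), the spindle protein Prc1 (4.00 ± 0.68) and the sliding clamp Pcna (1.80 ± 0.27) rose too. The kinesin Kif2c was the member that did not pass (1.49 ± 0.67; adjusted p = 0.078). When replicates 2 and 4 were left out, 23 rose, with a median of 2.25. These genes mark any dividing cell, and the data do not say which cells divided.

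The windows of these genes are printed because they also share the CCAAT box. It was in 22 of 27 cell cycle windows (81.5%), and, in lists added to the search after the sterol and cell cycle lists, in 18 of 20 windows of endoplasmic reticulum genes (90%), 13 of 26 of lysosomal genes (50%) and 11 of 26 of macrophage genes (42.3%). Among all genes that rose it was in 39.9% and among all that fell in 37.9%. The Cdc20 stretch (chr5:137255816-137255905, minus strand) and the Ccnb1 stretch (chr2:33655251-33655327, minus strand) each hold 2 boxes, the Kif11 stretch (chr1:244536786-244536830, plus strand) holds 1, and the stretch of the reticulum gene Edem1 (chr4:143353538-143353582, plus strand) holds 1.
Cdc20: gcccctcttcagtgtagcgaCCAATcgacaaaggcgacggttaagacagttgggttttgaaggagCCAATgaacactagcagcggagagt
Ccnb1: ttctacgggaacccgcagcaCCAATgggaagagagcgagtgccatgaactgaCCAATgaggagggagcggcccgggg
Kif11: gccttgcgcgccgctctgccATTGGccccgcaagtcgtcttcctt
Edem1: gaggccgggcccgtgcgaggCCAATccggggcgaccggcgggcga

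Collagens and matrix glycoproteins, 29 of 39, rose, and 0 fell. Versican, Vcan, a proteoglycan of provisional matrix, had signals of 235, 249.5 and 253 and then 4573, 7224, 2034 and 4999.6 (4.06 ± 0.55; adjusted p = 2.2e-05), and fibronectin, Fn1, had 1707, 2782 and 2447 and then 20966, 15457, 21837 and 17515 (3.04 ± 0.54; adjusted p = 0.00015). Neither overlapped. Col3a1, the fibrillar collagen of loose tissue, went from 12176, 18288 and 9786 to 36672, 38677, 46941 and 41897 (1.66 ± 0.39; adjusted p = 0.0015). The collagen I chains did not pass. Col1a1 had signals of 8027, 34431 and 18723 and then 29404, 25614, 34004 and 29176, which overlap, with replicate 2 of the lower dose highest (0.76 ± 0.81; adjusted p = 0.48), and Col1a2 differed by 0.86 ± 0.66 (adjusted p = 0.32). The basement membrane chains Col4a1 (1.65 ± 0.37) and Col4a2 (1.12 ± 0.43) and the collagen chaperone Serpinh1 (2.05 ± 0.37) rose. From replicates 1 and 3 of the higher dose alone, 13 rose. Col4a2 lost its call there, and also without replicate 2 or 4 of the higher dose and without any of the arrays of the lower dose.

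Of 22 matrix proteases and inhibitors on the array, 15 passed the signal filter, and 12 of these rose. The metalloproteinase inhibitor Timp1 had signals of 325, 313 and 276 at the lower dose and 20460.0, 29563, 11777 and 25715 at the higher dose, without overlap (6.03 ± 0.80; adjusted p = 1.9e-05). The related Timp4 was the member that fell, from 466, 614 and 878 to 269.9, 240.5, 288 and 315 (-1.15 ± 0.34; adjusted p = 0.0084). Urokinase, Plau (2.14 ± 0.32), its receptor Plaur (3.32 ± 0.75) and the membrane protease Mmp14 (2.25 ± 0.51) rose, and stromelysin, Mmp3, did not pass (0.50 ± 0.72; adjusted p = 0.62). Without replicates 2 and 4, 7 rose and 0 fell, and Timp4 also lost its call without replicate 3 of the lower dose. The inhibitor Serpina3n, an acute-phase protease inhibitor, was among the 12 largest rises without overlap, from 14.4, 6.0 and 41.6 to 2329.7, 5299, 1069 and 2910.3 (6.39 ± 1.10).

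Among 32 genes of the lysosome and autophagy, 22 went up and 3 went down. Cathepsin Z, Ctsz, was at 873, 515 and 643 and then 5808, 9575, 6678 and 9088 (3.50 ± 0.39; adjusted p = 8.0e-06) and the asparaginyl endopeptidase Lgmn at 1116, 1122 and 1250.4 and then 14053, 21148, 13986 and 23174 (3.91 ± 0.46; adjusted p = 1.2e-05). The members that fell were the transcription factor Tfeb (-1.23 ± 0.28), the mitophagy receptor Bnip3 (-1.60 ± 0.37) and the autophagosome protein Map1lc3a (-0.90 ± 0.22). The autophagy enzyme Atg7 rose (1.12 ± 0.35; adjusted p = 0.012), and Atg5, Atg12 and Becn1 did not pass, with differences of -0.34, -0.07 and -0.19. The E-box CACGTG, on either strand, was in 7 of 26 lysosomal windows (26.9%), against 9.45% of tested genes and 6.65% of all promoters. With replicates 2 and 4 left out, 18 rose and 1 fell, with Tfeb, Bnip3 and Atg7 no longer called. Atg7 also lost its call without replicate 2 of either dose.

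Folding enzymes of the endoplasmic reticulum rose in 23 of 25 cases, with a median of 1.29. The co-chaperone Sdf2l1 went from 296, 421 and 485 to 3485, 5272, 2136 and 2838 (3.01 ± 0.43; adjusted p = 2.9e-05). The main chaperone of the reticulum, Hspa5, went from 5479, 7099 and 6532 to 22787, 17890.0, 8289 and 15042, without overlap, with replicate 1 highest and replicate 3 nearest the lower dose (1.24 ± 0.30; adjusted p = 0.0021). The disulfide isomerases Pdia4 (2.85 ± 0.46) and Pdia6 (2.03 ± 0.28) and the secreted factor Manf (2.57 ± 0.38) rose. Herpud1 (-0.52 ± 0.26; adjusted p = 0.11) and Dnajb9 (0.26 ± 0.23; adjusted p = 0.39) did not pass. Of 20 genes of the amino acid and integrated stress response 7 rose and 2 fell, against 26.4% and 19.9% of all genes, and median centring gave 4 and 4. Those that rose included asparagine synthetase, Asns (2.23 ± 0.56), and the transporter Slc7a5 (2.40 ± 0.50), while Atf4 (-0.56 ± 0.25), Ddit3 (-0.56 ± 0.27) and Trib3 (0.34 ± 0.71) did not pass. Leaving out any 1 array gave 4 to 6 rises and 1 to 4 falls in that list, the fewest rises without replicate 4 of the higher dose or replicate 1 or 3 of the lower dose. On replicates 1 and 3 alone, 15 reticulum genes and 2 amino acid genes rose and 1 of the latter fell.

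**Figure D3:**
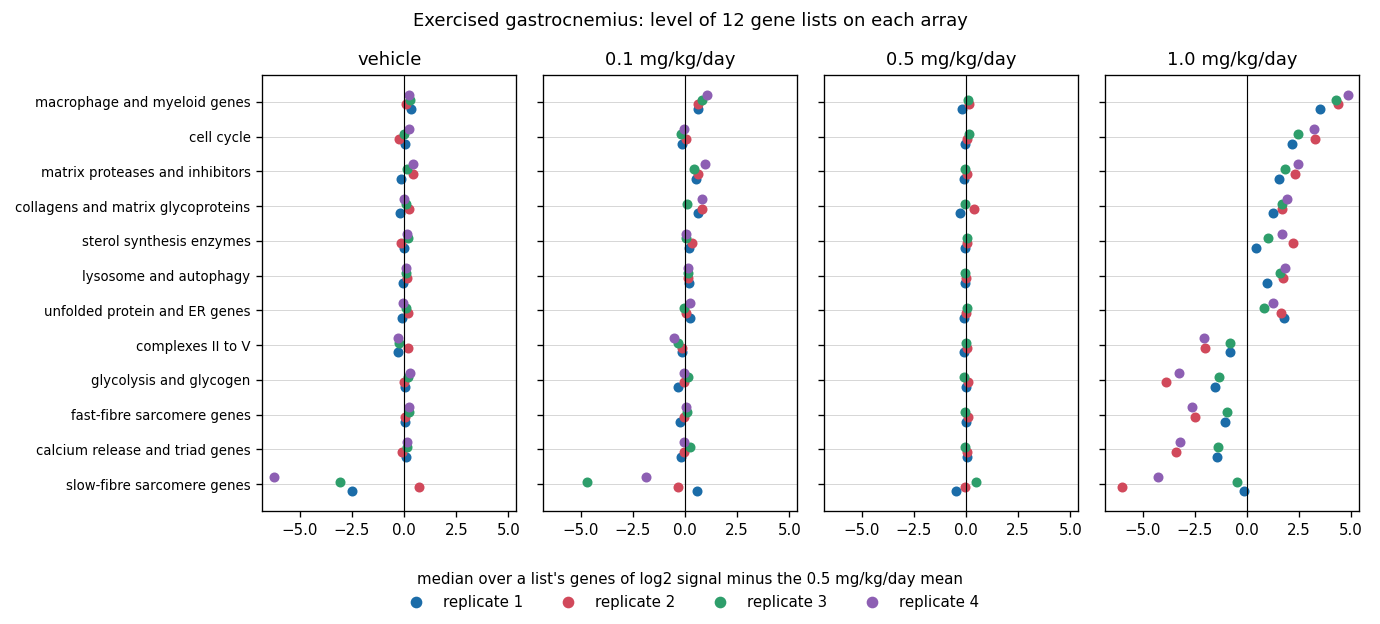
Median shift of the members of 12 gene lists from their mean at 0.5 mg/kg/day (horizontal axis, log2), with a row for each list, a point for each exercised gastrocnemius array and panels for vehicle, 0.1, 0.5 and 1.0 mg/kg/day. Macrophage genes stand at 3.53 to 4.83 in all 4 arrays at 1.0 mg/kg/day, while slow-fibre genes stand at -0.12 and -0.48 in replicates 1 and 3 and at -5.98 and -4.28 in replicates 2 and 4.

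Genes of the fast-fibre sarcomere all fell, 16 of 16, with a median of -1.95. Parvalbumin, Pvalb, the calcium buffer of fast fibres, had signals of 53085, 61201 and 43322 at the lower dose and 7580.1, 3144, 3023 and 1279 at the higher dose. The highest array of the higher dose was below the lowest of the lower dose (-4.06 ± 0.96; adjusted p = 0.0015). The fastest myosin heavy chain, Myh4, fell from 57569, 65496 and 58590.0 to 21554, 18494, 14607 and 17642, and its 4 arrays lay close together (-1.75 ± 0.44; adjusted p = 0.0026). The intermediate chain Myh2 read 44854, 57276 and 61828 and then 33212, 225, 40547 and 2216, so that replicates 2 and 4 set the size of its fall (-3.39 ± 1.24; adjusted p = 0.031). The M-band protein Myom2 (-3.68 ± 0.75), the light-chain kinase Mylk2 (-3.76 ± 0.74) and calsequestrin Casq1 (-2.75 ± 0.55) fell. The median member stood at -1.06, -2.49, -0.95 and -2.62 against the lower dose in replicates 1 to 4. When replicates 2 and 4 were left out, the median was -1.0 and 6 of 16 passed, and with the slow-fibre covariate 15 passed. Myh2 lost its call without any 1 of these arrays except replicates 1 and 3 of the higher dose, and Myom2 without replicates 2 and 4 together. Macrophage transcripts rose in the same arrays (35 of 36, at a mean log2 level of 11.20 to 12.55), and their part in this fall was not tested.

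Slow-fibre sarcomere genes spread widely among the arrays of the higher dose. Of 14 tested, only the myosin binding protein Mybpc1 fell (-2.73 ± 0.61; adjusted p = 0.0010), and it was not called without replicates 2 and 4. Without replicate 1 or 3 of the higher dose, 3 and 2 members fell. The slow myosin heavy chain Myh7 had signals of 40099, 54787 and 75459 at the lower dose and 42294, 91.9, 37253 and 1719 at the higher dose. Replicates 1 and 3 lay inside or just under the range of the lower dose, and replicates 2 and 4 far below it (-3.74 ± 2.09; adjusted p = 0.16). The slow troponin Tnni1 (20524, 26398 and 37314, then 20624, 318, 13590.0 and 873) and the ventricular light chain Myl2 (24159, 31699 and 44499, then 25623, 82.9, 16335 and 876) had the same order. Exercised rats on vehicle covered a like range for Myh7, at 9892, 84953, 3793 and 165. The muscle stress protein Csrp3, placed in this list as a slow-fibre gene, was not lower in every array, at 7703, 7638 and 4585 and then 27665, 4739.7, 12600.0 and 5328.

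Structural genes of the Z-disc fell in 19 of 27 cases and rose in 0, and those of calcium release and the triad in 23 of 25. The Z-disc adaptor Ldb3 had signals of 30058, 30805 and 30134 and then 7743, 65.8, 10158 and 382, without overlap and with replicates 2 and 4 lowest (-4.60 ± 1.11; adjusted p = 0.0019). Ky, a Z-disc peptidase, went from 10427, 13394 and 11576 to 1460.1, 23.7, 3398 and 80.0 (-5.03 ± 1.2; adjusted p = 0.0018). Titin, Ttn, went from 40829, 46469 and 49916 to 13658, 1739, 16582 and 3018 (-2.95 ± 0.62). Ankrd1, a stretch-responsive titin partner, stood higher in all 4 arrays, at 3763, 1729 and 758 and then 12375, 5371, 7522 and 4792, but did not pass the test (2.03 ± 0.85; adjusted p = 0.059), though it did without replicate 1 of the lower dose. Desmin (-0.52 ± 0.31; adjusted p = 0.19) and the chaperone Cryab (-0.63 ± 0.37; adjusted p = 0.18) did not pass either. In the triad, the release channel Ryr1 fell from 35816, 30672 and 31855 to 10699, 1859, 11726 and 2139 (-2.79 ± 0.57; adjusted p = 0.00052) and the voltage sensor Cacna1s by a like amount (-3.03 ± 0.68). The store-entry sensor Stim1 fell in a narrower band, from 3493, 3560.2 and 3399 to 1236, 712, 1313 and 625 (-1.90 ± 0.30; adjusted p = 7.3e-05). Fkbp1a, the small Ryr1-binding immunophilin that many cells make, was the triad member that rose (0.70 ± 0.19; adjusted p = 0.0043). From replicates 1 and 3 of the higher dose alone, the calls were 2 Z-disc and 4 triad genes, with medians of -0.85 and -1.37. Ldb3, Ky, Ttn, Ryr1, Cacna1s and Fkbp1a were among the genes that lost their calls, and Stim1 kept its call.

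Genes of energy metabolism fell. All 34 of 34 tested complex I genes fell, with a median of -1.58, and so did 35 of 37 genes of complexes II to V, 18 of 18 of the tricarboxylic acid cycle and 24 of 27 of glycolysis and glycogen. The complex I subunit Ndufv3 read 13034, 15161 and 13764 and then 5745, 1515, 5314 and 1735 (-2.22 ± 0.48; adjusted p = 0.00086). The groups did not overlap, and replicates 2 and 4 were lowest. Glycerol-3-phosphate dehydrogenase, Gpd1, which shuttles reducing power from glycolysis, fell from 25357, 26309 and 21189 to 3000.0, 489, 3501 and 566 (-4.19 ± 0.76; adjusted p = 0.00020). The insulin-regulated glucose transporter Slc2a4 fell from 14214, 15747 and 15228 to 3471, 155, 4643 and 184 (-4.14 ± 0.83), and the gluconeogenic enzyme Fbp2 fell too (-4.32 ± 1.00). Lactate dehydrogenase Ldhb, the oxidative form, spread too widely to pass (-2.04 ± 1.21; adjusted p = 0.19), whereas the fast form Ldha fell (-1.40 ± 0.37).

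These metabolic calls depended on replicates 2 and 4. Without them, 0 of 34 complex I genes, 1 of 37 genes of complexes II to V, 0 of 18 cycle genes and 7 of 27 glycolysis genes passed. The medians kept their sign, at -0.99, -0.82, -1.03 and -1.41. Leaving out any 1 array left 34 of 34 complex I genes, and the slow-fibre covariate left 34. By array, the complex I median stood at -0.94, -2.17, -1.02 and -2.28 against the lower dose, so replicates 1 and 3 were also below it. Gpd1 and Slc2a4 kept their calls without replicates 2 and 4, and Ndufv3, Fbp2 and Ldha did not.

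Genes of fatty acid uptake and oxidation fell in 22 of 32 cases. The mitochondrial carrier Ucp3 of muscle fell from 2661, 6358 and 2938 to 1264, 102, 1536 and 205 (-2.97 ± 0.66; adjusted p = 0.00093), while Ucp2, the form of white blood cells and other tissues, rose from 548, 485 and 539 to 2117, 3708, 3191 and 5463 (2.68 ± 0.44; adjusted p = 8.3e-05). Neither overlapped. The coactivator Ppargc1a, which sets mitochondrial content, fell (-2.49 ± 0.59), and the lipid transporters Cd36 (-0.15 ± 0.52; adjusted p = 0.85) and Lpl (-0.47 ± 0.61; adjusted p = 0.57) did not pass. Leaving out any 1 array gave 13 to 24 falls, the lowest without replicate 2 of the higher dose, and 14 without replicate 4. Without both replicates the count was 0, so Ucp3 and Ppargc1a were not called there. Of 8 genes of the creatine and adenylate system 5 fell, among them the creatine transporter Slc6a8 (-1.5 ± 0.30) and mitochondrial creatine kinase Ckmt2 (-2.79 ± 0.76). Without replicates 2 and 4, 1 fell, and it was not Ckmt2.

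The largest falls with no overlap were led by Mss51, a mitochondrial protein of fast fibres, at 20308, 12979 and 7681 and then 419.9, 124, 364 and 54.1 (-6.02 ± 1.23; adjusted p = 0.00050). The highest array of the higher dose, replicate 1, was far below the lowest of the lower dose, replicate 3. The water channel Aqp4 of fast fibres (-4.88 ± 1.39), the mitochondrial regulator Perm1 (-4.45 ± 1.00) and the nicotinamide riboside kinase Nmrk2 (-4.34 ± 1.00) followed. For Aqp4 the signals were 5678, 7331 and 11491 and then 1650.3, 3.1, 2113 and 79.0. With replicates 2 and 4 left out, Mss51 kept its call, and Aqp4, Perm1 and Nmrk2 lost theirs.

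Pairs of related proteins, with a form typical of muscle and a form of wider expression, were then set side by side, 30 pairs chosen after the values were seen. In 20 pairs the general form rose and the muscle form fell, and in 0 pairs the reverse held. Of the 30 general forms 22 rose and 1 fell (the protease Capn1), and of the 27 different muscle forms 25 fell and 0 rose. Of all genes, 26.4% rose and 19.9% fell, and a choice made with the values known can favour such a split. The ribosomal protein Rpl3 went from 4793, 6150.5 and 4762 to 27525, 33175, 25185 and 33550.0 (2.51 ± 0.43), and its muscle form Rpl3l differed by -3.39 ± 0.80. Elongation factor Eef1a1 rose by 1.58 ± 0.30 where the muscle form Eef1a2 stood at -2.33 ± 0.56. Phosphoglycerate mutase Pgam1 differed by 1.98 ± 0.34 and Pgam2 by -3.23 ± 0.75, the glucose transporter Slc2a1 by 1.86 ± 0.59 and Slc2a4 by -4.14 ± 0.83, and the adenine nucleotide carrier Slc25a5 by 2.61 ± 0.39 and Slc25a4 by -1.53 ± 0.40. Creatine kinase Ckb went from 275, 432 and 315 to 1792, 2931, 3144 and 3024 (2.94 ± 0.62), and Ckm, the muscle form, from 75493, 81676 and 75920.0 to 51562, 31061, 55397 and 31874 (-0.92 ± 0.25). Neither of the creatine kinases overlapped between doses. On replicates 1 and 3 alone, both members of a pair passed in 1 pair, 14 general forms rose and 4 muscle forms fell. That fit called 1954 of 21729 probe sets higher and 1151 lower. Ckm also lost its call under quantile normalization, Slc2a1 without replicate 1 of the lower dose, and Fabp3 without replicate 2 or 4 of the higher dose. The general forms are also made by macrophages and other cells whose markers rose in these arrays, and that part of the difference was not tested.

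**Figure D4:**
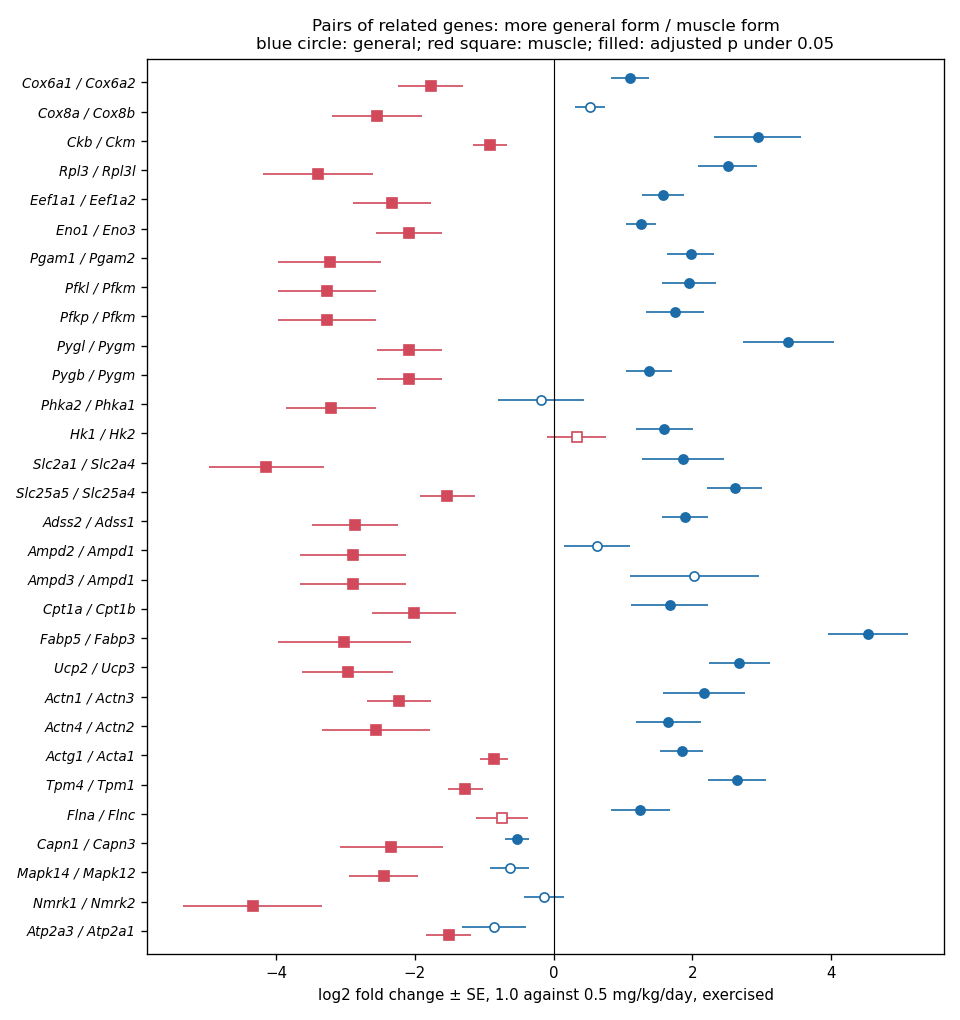
Log2 fold change (1.0 minus 0.5 mg/kg/day, exercised gastrocnemius; horizontal axis) of 30 pairs of related genes, with the general form and the muscle form as separate points on each row and bars for the standard error. In 20 pairs the general form rose and the muscle form fell, as for Fabp5 at 4.53 and Fabp3 at -3.02.

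Of 24 myogenic and satellite cell genes 7 rose and 6 fell, shares near the 26.4% and 19.9% of all genes. The myogenic factors themselves did not pass. Myod1 stood at 1344, 1742 and 1945 and then 1011, 1574, 1832 and 2617, and Myog at 1259, 1329 and 1953 and then 4169.9, 1626, 3986 and 2447 (0.94 ± 0.52; adjusted p = 0.16). Both sets overlap. The fusion protein Mymk rose (1.85 ± 0.54; adjusted p = 0.0083), the growth factor Igf1 rose (2.56 ± 0.65), and the transcription factors Mef2c (-2.24 ± 0.48) and Mef2a (-0.98 ± 0.20) fell. Embryonic myosin, Myh3, a mark of new fibres, read 642, 188 and 148 and then 384, 269, 3159 and 832, with only replicate 3 well above the lower dose (1.42 ± 1.13; adjusted p = 0.34). Of 7 developmental sarcomere genes 2 rose (28.6%, near the 26.4% of all genes) and 0 fell. Only 1 rose without replicate 3 of the higher dose or replicate 2 or 3 of the lower dose. With the slow-fibre covariate 4 of them rose, and 1 rose without replicates 2 and 4. Myostatin, Mstn, which restrains growth, fell from 359.6, 205 and 66.5 to 31.4, 4.6, 6.2 and 4.4 (-3.08 ± 0.90; adjusted p = 0.0081). When replicates 2 and 4 were left out, 3 myogenic genes rose and 1 fell, and Igf1, Mef2c and Mstn lost their calls. Mstn also lost its call without replicate 1 of the lower dose.

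The ubiquitin ligases that mark atrophy did not pass. Fbxo32 stood at 441, 678 and 664 and then 1379, 276, 672 and 180.1 (-0.31 ± 0.56; adjusted p = 0.69), and Trim63 at 6126, 5589.9 and 5007 and then 10099, 1175, 3299 and 1311 (-1.05 ± 0.61; adjusted p = 0.18). For both, replicate 1 was above the lower dose and replicates 2 and 4 below it. Among 25 genes of atrophy and growth control 6 rose and 5 fell, the shares of all genes being 26.4% and 19.9%, and 3 rose and 1 fell without replicates 2 and 4. Among 30 proteasome genes 4 fell (13.3%, against 19.9% of all genes) and 0 rose. The proteasome count was 2 to 7 when any 1 array was left out (lowest without replicate 2 or 4 of the higher dose or replicate 1 of the lower dose, highest without replicate 1 of the higher dose) and 1 without replicates 2 and 4, and its median turned from -0.12 to 0.09 under quantile normalization. Of 20 ribosomal protein genes 5 rose (25%, near the 26.4% of all genes). Leaving out any 1 array gave 3 to 5, lowest without higher-dose replicate 4 or lower-dose replicate 1 or 2. The ribosomal count was 2 after median centring, 17 after quantile normalization and 1 without replicates 2 and 4. Of 14 genes of the junction with the nerve 3 rose and 3 fell, shares near those of all genes, and 1 fell with the slow-fibre covariate. Runx1, which denervated muscle turns on, rose from 1051, 541 and 510.0 to 4962, 3111, 3523 and 4013 (2.51 ± 0.44; adjusted p = 0.00014), as did the receptor subunit Chrnd (2.07 ± 0.78), while the adult sodium channel Scn4a fell (-2.22 ± 0.65) and the adult receptor subunit Chrne did not pass (-2.0 ± 0.88; adjusted p = 0.073). The number that fell there was 1 to 4 when any 1 array was left out, lowest without replicate 2 or 4 of the higher dose or replicate 1 or 2 of the lower dose, and 0 without replicates 2 and 4, where 2 rose. Chrnd lost its call there, and also without replicate 1, 2 or 3 of the higher dose or replicate 1 or 2 of the lower dose.

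Haem oxygenase, Hmox1, had signals of 183, 129 and 144 and then 2842, 6033, 2206 and 4492, without overlap (4.48 ± 0.61; adjusted p = 2.2e-05), and metallothionein Mt2A had 1308, 988 and 522 and then 28712, 23825, 9187 and 19183 (4.39 ± 0.64). The classical Nrf2 target Nqo1 did not pass (0.39 ± 0.37; adjusted p = 0.42). In that list of oxidative stress genes 9 of 26 rose and 6 fell, against 26.4% and 19.9% of all genes, and 6 and 1 did so without replicates 2 and 4. Of 20 heat shock genes 2 rose (10%) and 6 fell (30%), against the same 26.4% and 19.9%. Without replicates 2 and 4 these counts were 0 and 1. The inducible Hspa1a did not pass, at -1.27 ± 0.58 (adjusted p = 0.086). Genes tied to p53 or apoptosis rose in 15 of 26 cases, and 2 fell. Cdkn1a, the cell cycle inhibitor, went from 879, 1267 and 1519.9 to 4246, 3476, 5172 and 5546 (1.92 ± 0.46; adjusted p = 0.0017), while the direct p53 targets Mdm2 (-0.38 ± 0.21; adjusted p = 0.15) and Phlda3 (0.40 ± 0.36; adjusted p = 0.41) did not pass. Immediate early genes rose in 12 of 26 cases, led by Egr2 (2.89 ± 0.54), and the exercise-responsive receptor Nr4a1 fell, from 6896, 5626 and 4407 to 1026, 671, 1391 and 643 (-2.63 ± 0.42; adjusted p = 7.4e-05). From replicates 1 and 3 of the higher dose alone, 7 p53 and 4 immediate early genes rose and 0 p53 genes fell.

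Markers of the other cells a muscle sample can hold moved less than the myeloid list. Of all genes 26.4% rose and 19.9% fell, the shares to set beside each count here. Of 11 fibroblast and progenitor markers 3 rose (27.3%) and 1 fell (9.09%). The progenitor receptor Pdgfra was at 788, 1266 and 964 and then 4437, 9433, 3885 and 8870.4 (2.63 ± 0.51; adjusted p = 0.00031). Of 13 endothelial markers 1 rose (Eng, 1.54 ± 0.48), of 12 smooth muscle and pericyte markers 2 rose and 2 fell, and of 7 Schwann cell markers 1 rose (Cnp, 2.20 ± 0.44). Of 11 adipocyte markers 2 rose and 2 fell, of 6 mast cell markers 1 rose (the histamine enzyme Hdc, 2.58 ± 0.63), and of 4 erythroid markers 1 fell. Each count of 1 or 2 in these lists, other than those of Schwann cell markers and of the fibroblast and adipocyte markers that fell, moved by 1 when some array was left out. The medians of these lists lay between -0.52 and 0.95, against 0.10 for all genes. Tendon markers followed the split of the slow-fibre genes. Cartilage oligomeric matrix protein, Comp, read 260.2, 261 and 166 and then 5330.4, 181, 4164 and 270.4, high in replicates 1 and 3 and near the lower dose in replicates 2 and 4 (2.15 ± 1.39; adjusted p = 0.23), and 0 of 6 members passed. The mean log2 level of the tendon list was 9.65 to 11.13 at the lower dose and 8.17 to 11.97 at the higher dose, that of the fibroblast list 9.81 to 10.37 and 10.37 to 11.38, and that of the endothelial list 9.80 to 9.92 and 9.83 to 10.42. The part of these cells in the other results was not tested. The endothelial median changed sign with median centring (-0.07) and quantile normalization (-0.01). Without replicates 2 and 4, the fibroblast count was 1, the endothelial count 0, the counts of adipocyte markers that rose and of smooth muscle markers in either direction 0, and Hdc lost its call, and Eng also lost its call without replicate 1 of the lower dose.

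The step from vehicle to 0.5 mg/kg/day in exercised rats was set beside the step from 0.5 to 1.0. Between vehicle and 0.5 mg/kg/day, limma called 0 of 21729 probe sets (0%), with 626 at an unadjusted p under 0.05 and a smallest adjusted p of 0.05. Over the other settings tried, the count was 0 to 4. The lower-dose arrays are shared by both steps. Spp1 differed by -1.04 ± 0.91 over the lower step and 8.12 ± 0.91 over the upper step, Sqle by 0.05 ± 0.67 and 4.64 ± 0.67, Pvalb by -0.27 ± 0.96 and -4.06 ± 0.96, and Mki67 by -0.30 ± 0.88 and 5.54 ± 0.88. The difference between the steps was tested as a curvature term. It was larger upwards in 487 genes (4.17%) and downwards in 95 (0.813%), 891 probe sets in all. Of the 36 myeloid genes 30 passed in it, with Spp1 at 9.15 ± 1.61 (adjusted p = 0.011) and the exchange factor Rin3 at 3.68 ± 0.58 (adjusted p = 0.011). The sterol list had 5 of 17, the cell cycle list 7 of 31 and the complex I list 0 of 34. This count was not stable. Leaving out replicate 1, 2 or 3 of the lower dose gave 5, 28 and 50 probe sets, leaving out replicate 1, 2, 3 or 4 of the higher dose gave 2250, 77, 2091 and 63, and leaving out replicate 1, 2, 3 or 4 of vehicle gave 286, 490, 237 and 381. With both of replicates 2 and 4 of the higher dose left out, limma called 0 probe sets for this term.

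The same doses were compared in unexercised rats. There 908 genes rose (7.77%) and 409 fell (3.5%), from 2028 probe sets. The groups of exercised and unexercised rats share no arrays. Spp1 read 45.5, 121, 165 and 82.3 in the 4 unexercised arrays at 0.5 mg/kg/day and 22132, 28086 and 1269 in the 3 at 1.0 (6.44 ± 0.91; adjusted p = 0.0030). Of the 3, the array labelled replicate 3 lay nearest the lower dose, though above it. Measured from the exercised mean at 0.5 mg/kg/day, its myeloid median stood at 0.68, against 3.66 and 3.86 in replicates 1 and 2. On that scale the 4 unexercised arrays at 0.5 mg/kg/day stood at -0.02, 0.27, 0.13 and 0.48. Without replicate 3 of the unexercised 1.0 mg/kg/day group 5892 probe sets were called, and without replicate 1 or 2 of that group 0 and 1. Without replicate 1, 2, 3 or 4 of the unexercised lower dose the counts were 610, 1221, 1034 and 1069. By list, 31 myeloid genes rose in unexercised rats with a median of 2.69, 17 cell cycle genes with 1.62, 5 sterol genes with 0.65, and 4 fast-fibre genes fell with -1.06.

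The difference between the exercised and unexercised steps was tested as an interaction. Limma called 0 of 21729 probe sets (0%), with 1388 at an unadjusted p under 0.05 and a smallest adjusted p of 0.72. Leaving out any 1 array also gave 0. With arrays weighted by quality the count was 2555, so the call depends on that setting. The list medians of the exercised step were larger in size for the myeloid list (4.29 against 2.69), the cell cycle list (2.75 against 1.62) and complex I (-1.58 against -0.88). No member of these lists passed the interaction. The smallest unadjusted p of all genes belonged to Palmd, a paralemmin-family protein, with an exercised step of -1.72 ± 0.33, an unexercised step of 0.29 ± 0.33 and an interaction of -2.01 ± 0.47 (unadjusted p = 0.00021, adjusted p = 0.72). The secreted Wnt regulator Sfrp2 had an exercised step of 4.15 ± 0.70, an unexercised step of 0.62 ± 0.70 and an interaction of 3.53 ± 0.99 (unadjusted p = 0.0014, adjusted p = 0.72). Insig1 stepped by 2.74 ± 0.49 in exercised and 2.10 ± 0.49 in unexercised rats, with an interaction of 0.64 ± 0.70 (adjusted p = 0.80).

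**Figure D5:**
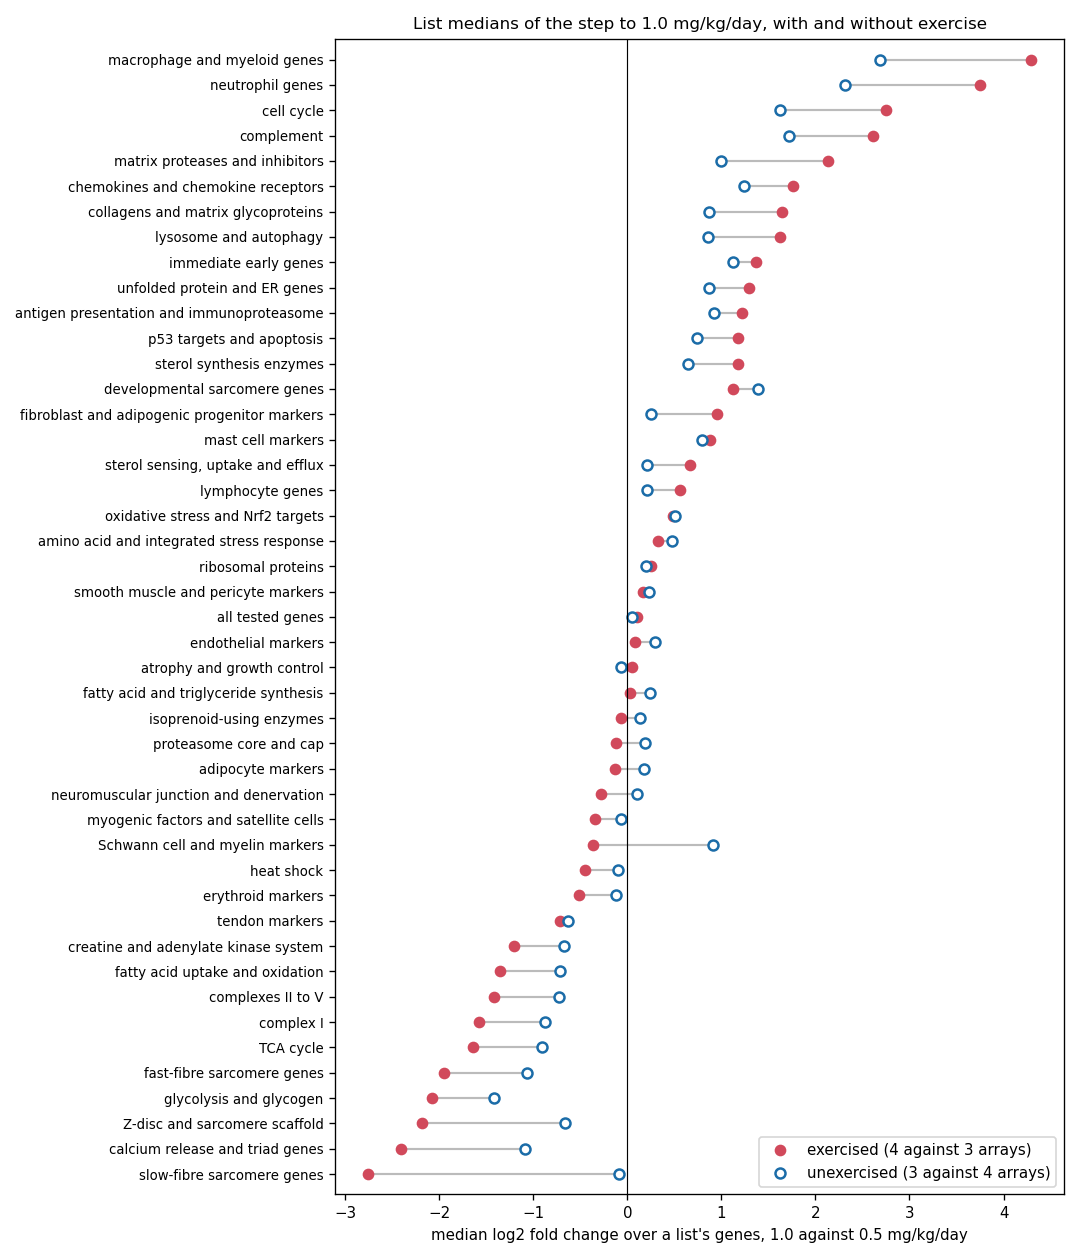
Median log2 fold change (1.0 minus 0.5 mg/kg/day; horizontal axis) of the tested members of each gene list, in exercised and in unexercised rats, joined by a line for each list. The myeloid list stands at 4.29 in exercised and 2.69 in unexercised rats, and no probe set passed the test of the difference between the steps in the fit as reported.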

How the data were processed

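Gastrocnemius RNA was labelled and hybridised to Affymetrix rat arrays, per the labels' protocols, and the signals were computed with MAS5, per the submitters' processing notes. The deposited values are linear array intensities, scaled by the authors so that array means nearly coincide; MAS5 subtracts background, so low signals are noisy. Values were turned to log2(intensity + 12.4), where 12.4 is the 10th percentile of the deposited intensities, so changes of low genes are understated. Of 31099 probe sets, 57 controls and those with a mean log2 under the 30th percentile (6.03) over all 45 arrays were left out, leaving 21729. Genes came from the platform annotation (20826 probe sets with 1 symbol, 436 with several, 9780 with none), checked against RefSeq (20758 matched by gene ID, 0 with another symbol).

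limma 3.58.1 (R 4.3.3; lmFit, eBayes with a trend) was fitted to all 30 gastrocnemius arrays in 8 groups, which share 1 estimate of the spread (22 residual degrees of freedom), with Benjamini-Hochberg adjustment at 0.05. No pair of arrays was identical (highest correlation 0.966 over all 31042 probe sets other than controls, including those left out by the filter). Tables and figures were made with Python 3.11.15, pandas 2.3.3 and matplotlib 3.10.9. A list is described by its counts and median beside all genes.

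The comparison, the gene lists and the pairs were chosen with earlier results of these data known. The named genes were the 12 largest rises and 12 largest falls without overlap, up to 4 members of each list by p with called members against a list's direction, 22 genes shown whatever their values, and the extremes of the interaction and curvature terms. The 84 others (and the pairs) were added after their values were seen. Alternatives changed the offset, filter, scaling, samples, variance model, probe set rule and replicate block, or left out arrays. Some genes and 1 gene list are not reported here.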

Additional observations from a re-analysis of the deposited data

Results flagged for a closer look

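In the 4 exercised arrays at 1.0 mg/kg/day, 376 gene and list values were searched for an array far from the others, by the gap to its nearest neighbour over the whole range. Such gaps were found in 7 of them, where chance alone flags about 1 in 20 groups. The signal of Ckb was 1791.7 in replicate 1 against 2931.3 to 3144.1 in the others. That of Asns was 672.5 in replicate 2 against 546.0 to 558.5, that of Kcnab2, a potassium channel subunit, 685.3 in replicate 2 against 391.6 to 421.9, and that of Dpm1 3036.1 in replicate 2 against 2344.1 to 2442.7. The myostatin gene Mstn read 31.4 in replicate 1 against 4.4 to 6.2, near the offset added before the log. The smooth muscle gene Smtn read 1081.9 in replicate 3 against 647.0 to 701.5, and Mdm2 read 2091.4 in replicate 1 against 1567.9 to 1640.3.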

How the results depend on the processing

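The difference between 1.0 and 0.5 mg/kg/day in exercised gastrocnemius, 8630 probe sets (4682 higher, 3948 lower), stayed within 1.5 times its size under each setting tried except the pair of arrays 1 and 3 alone, which gave 3105 (1954 higher, 1151 lower), with fewer samples. Leaving out any 1 array gave 6932 to 8813 (3762 to 4738 higher, 3170 to 4075 lower).

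For vehicle against 0.5 mg/kg/day the count of 0 became 1 with an offset of 64, 2 with an offset of 1, 2 with the filter on arrays not at 1.0 mg/kg/day, 2 with all 45 arrays, 2 without the 3 arrays whose actin 5′ to 3′ signal ratio was lowest, 3 with 1 prior variance and 4 with array weights, and 0 to 1 when any 1 array was left out. The unexercised step of 2028 became 0 with only its own arrays, 3298 with all 45 arrays, 4085 without those 3 arrays and 11598 with array weights, and 0 to 5892 when any 1 array was left out. The interaction was 0 when any 1 array was left out and 2555 with array weights. The curvature count of 891 became 494 with no filter, 3038 with only the arrays compared, 2717 with all 45 arrays, 3776 without those 3 arrays, 495 with 1 prior variance, 7697 with array weights, 37 with the slow-fibre covariate and 0 with arrays 1 and 3 alone, and 5 to 2250 when any 1 array was left out. The cause of these moves was not tested.

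Same-numbered replicates were not shown to be paired, since the correlations of their deviations were 0.0442, 0.00695 and 0.0183. With the replicate number as a block, the fit called 8325 probe sets (4497 higher, 3828 lower) for the exercised step, 1529 for the unexercised step, 2 for vehicle against 0.5 mg/kg/day and 86 for curvature. Of 365 named or paired genes, at most 24 lost their call when any 1 array was left out. The chemokine Cxcl12, not called by its brightest probe set, had the opposite sign (0.81) and passed when all its probe sets were averaged. Probe sets near background limit low genes such as Mstn, 3 of whose 4 signals at the higher dose lie under the offset.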
